A study of Homo sapiens with 10 samples.

Results

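Diethyl phthalate (DEP), a short-chain phthalate diester used as a solvent and plasticiser, was compared with its vehicle in differentiating human neurospheres. The comparison was defined by the labels and took 4 of the 10 RNA sequencing libraries of the series, 2 labelled vehicle (0.1% DMSO) and 2 labelled DEP (100 µM). All came from ReNcell VM, 1 immortalised human neural progenitor line, and the labels give no genetic difference between groups. Spheres were seeded at 8000 cells per well, formed over 4 days, moved to laminin, and differentiated for 6 days in N-2 medium. Medium and test substance were renewed every 2 days, and the RNA of 6 neurospheres was pooled for each library. The other 6 libraries were treated with DProP, DPP or a mixture (Mix), also labelled 100 µM, of which DProP and DPP are used below as comparators. DProP usually abbreviates di-n-propyl phthalate, although the labels do not spell it out, whereas DPP stands for more than 1 phthalate and is given no structure here. Whether replicate libraries are separate cultures is not labelled, so p values here reflect spread among libraries, which may be technical. The labels also do not give the DMSO content of the treated wells.

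When growth factors are withdrawn, neural progenitors of this kind leave the cycle and give rise to neurons and glia. Proneural basic helix-loop-helix factors and SOX factors start the neuronal programme, cytoskeletal and adhesion proteins build the neurite, and synaptic proteins and channels follow later. Cells that spread on laminin also pull on it, and the transcription factors SRF, with its actin-regulated cofactors, and TEAD, with its cofactor YAP, turn actin tension into the expression of contractile and matricellular genes.

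Library totals lay from 57222381 to 72973100 counts over the series, with 69697714 and 60695361 in vehicle and 69967598 and 69467394 in DEP. In RNA classes both vehicle libraries differed from the 8 treated ones. Transcripts of the mitochondrial chromosome took 0.116% and 0.149% of vehicle counts against 0.324% and 0.344% of DEP counts, and long non-coding RNA (lncRNA) genes took 1.57% and 1.27% against 0.777% and 0.798%. Of the lncRNA genes MALAT1 alone took 1.25% and 0.946% of vehicle counts against 0.361% and 0.394% of DEP counts. The lower lncRNA share in DEP therefore does not describe the other lncRNA genes. A count was listed for 21603 and 21500 genes in vehicle and for 23362 and 23375 in DEP. GC content and the log2 difference between DEP and vehicle had a Spearman rho of -0.30 over 14821 protein-coding genes (genes do not count as replicates), whereas rho was 0.13 against DProP and 0.10 against DPP. Libraries were prepared by exome capture and the labels name no batch. A batch that coincides with the vehicle group therefore cannot be told apart from the treatment, nor can fewer cells of a type be told apart from less RNA per cell.

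Many transcripts differed between DEP and vehicle by small amounts. With edgeR's quasi-likelihood test and a Benjamini-Hochberg adjusted p under 0.05, 4601 of 19465 tested genes were called, or 23.6%. Of all tested genes 1964 (10.1%) were higher in DEP and 2637 (13.5%) were lower, as scaled by TMM. When libraries were scaled by their totals alone, 4794 were higher and 1259 lower, because this moved the median of all genes by 0.16 on the log2 scale. Fold changes below are relative to the TMM scale. Among the 14132 genes with a mean of at least 1 CPM (counts scaled to the library total and by TMM), the 2 DEP libraries differed by 2-fold or more in 48 genes and the 2 vehicle libraries in 65, while the groups differed by that much in 337. The absolute log2 difference had a median of 0.0871 within DEP, 0.112 within vehicle and 0.183 between them. In 63.8% of tested genes the libraries of the groups did not overlap. The same direction was called without each of the 4 libraries in turn for 540 of the risen and 986 of the fallen genes. Without DEP 1 there were 2075 calls and without DEP 2 there were 2248.

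The classes of genes moved differently. Of 14905 protein-coding genes 1205 (8.08%) rose and 2509 (16.8%) fell, with a median of -0.04. Of 1875 lncRNA genes 471 (25.1%) rose and 16 (0.853%) fell, with a median of 0.88. Changes of 2-fold or more were uncommon among protein-coding genes, with 126 that rose and 191 that fell. The shares of 8.08% and 16.8% are the background of the gene list counts below, several of which are near them.

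**Figure D1:**
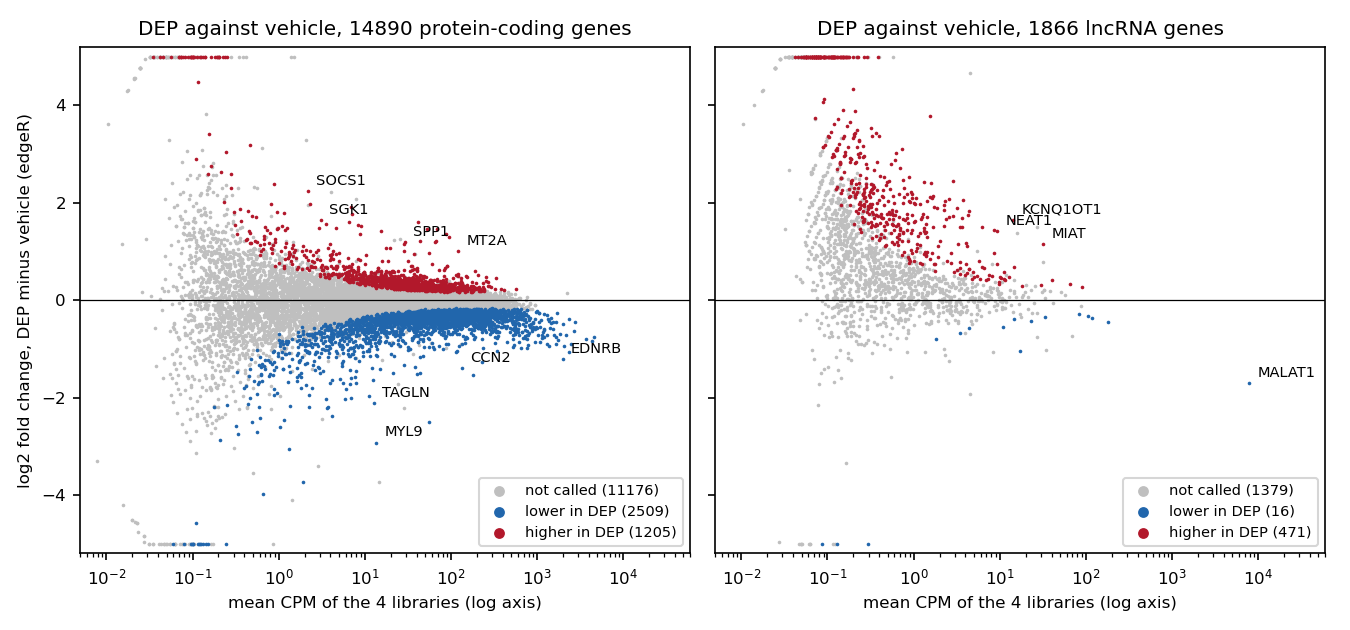
Log2 fold change of DEP against vehicle (vertical axis) against the mean CPM of the 4 libraries (horizontal log axis) for protein-coding genes (left) and lncRNA genes (right). Red and blue points passed the threshold. Values beyond 5 are drawn at 5, and genes without a count in these libraries are not drawn. Most called protein-coding genes lie close to the zero line, whereas the called lncRNA genes lie above it.

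The largest decreases are given first, for protein-coding genes with a mean of at least 2 CPM. PODN, which encodes the small leucine-rich proteoglycan podocan, stood at 5.79 and 6.27 CPM in the vehicle libraries and 1.05 and 1.54 CPM in the DEP libraries. Its log2 fold change was -2.22 ± 0.28 (SE), with an adjusted p of 0.000307. CLDN1, a tight junction claudin gene, stood at 13.4 and 8.73 CPM in vehicle and 2.75 and 2.73 CPM in DEP (-2.02 ± 0.21, adjusted p = 8.3e-05). In both genes each DEP library lay below each vehicle library, and the same holds for every gene given below with a log2 fold change against vehicle, in its own direction, unless stated. For the genes ranked by size this was a condition of their choice, and 63.8% of all tested genes met it. ZNF469, a zinc finger gene linked to collagen and the cornea, fell from 18.9 and 16.9 CPM to 4.08 and 5.02 CPM (-1.98 ± 0.15, adjusted p = 1.32e-05). HSD11B2, which encodes the enzyme that inactivates cortisol, fell from 12.3 and 12.1 CPM to 3.15 and 4.29 CPM (-1.71 ± 0.26, adjusted p = 0.00126). The matrix protein gene FBLN2 (-1.71 ± 0.20), the muscle peptidase gene KY (-2.03 ± 0.21), the cilium gene CFAP100 (-2.03 ± 0.23) and the small GTPase gene RRAD (-1.80 ± 0.28) fell as well. The calls of all genes written here as fallen or risen against vehicle, other than those of EGR1 and MYH11, held in every alternative apart from a 2-fold minimum. This does not describe the called genes at large. Called genes named by the rule whose call ended in an alternative are mostly not given with a change against vehicle. Among them are NEUROG2, MAP2, SNAP25, PAX6, FOS and JUN.

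Several abundant transcripts fell as well. EDNRB, the endothelin B receptor gene of glia and progenitors, stood at 3011 and 2534 CPM in vehicle and 1221 and 1170.0 CPM in DEP (-1.21 ± 0.08, adjusted p = 1.26e-05). The phosphatase catalytic subunit gene PPP1CB stood at 3554 and 2901 CPM in vehicle and 1472 and 1600.1 CPM in DEP (-1.07 ± 0.08, adjusted p = 1.85e-05). PI15, a secreted peptidase inhibitor gene, stood at 312 and 229.9 CPM in vehicle and 91.3 and 96.03 CPM in DEP (-1.53 ± 0.12, adjusted p = 3.63e-05). The vehicle libraries differed more than the DEP libraries in all 3 genes but stayed well above them. FABP7, the brain fatty acid-binding protein gene of radial glia, fell from 351 and 298 to 126 and 145 CPM (-1.26 ± 0.12, adjusted p = 8.21e-05), and PTGDS, the prostaglandin D synthase gene, fell from 148 and 158 to 74.03 and 73.1 CPM (-1.06 ± 0.09, adjusted p = 2.54e-05).

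The increases of SOCS1, SGK1, RGS4 and ARC were among the 15 largest that the same rule gave for protein-coding genes. SOCS1, a feedback inhibitor of cytokine signalling, stood at 0.626 and 0.900 CPM in vehicle and 3.48 and 3.72 CPM in DEP (2.24 ± 0.27, adjusted p = 0.000235). SGK1, a kinase gene induced by glucocorticoids, stood at 1.19 and 1.84 CPM in vehicle and 4.98 and 4.43 CPM in DEP (1.64 ± 0.20, adjusted p = 0.000224). RGS4, a regulator of G protein signalling, stood at 4.80 and 3.71 CPM in vehicle and 12.9 and 11.9 CPM in DEP (1.54 ± 0.17, adjusted p = 0.00017). Each DEP library was above each vehicle library, as the rule required, and by a wide margin. ARC, an activity-regulated synaptic gene, rose from 6.90 and 10.03 to 22.4 and 22.6 CPM (1.41 ± 0.22, adjusted p = 0.00232). SPP1, the osteopontin gene, rose from 19.4 and 15.97 to 39.6 and 41.1 CPM (1.19 ± 0.16, adjusted p = 0.00133).

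Increases among abundant genes were smaller. TFRC, the transferrin receptor gene, stood at 129 and 126 CPM in vehicle and 182 and 173 CPM in DEP (0.47 ± 0.08, adjusted p = 0.00176). The arrestin-domain gene ARRDC3 (0.51 ± 0.07), the lysosomal trafficking gene LYST (0.52 ± 0.10), the ryanodine receptor gene RYR3 (0.50 ± 0.07) and PHIP (0.46 ± 0.06) rose by similar amounts.

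**Figure D2:**
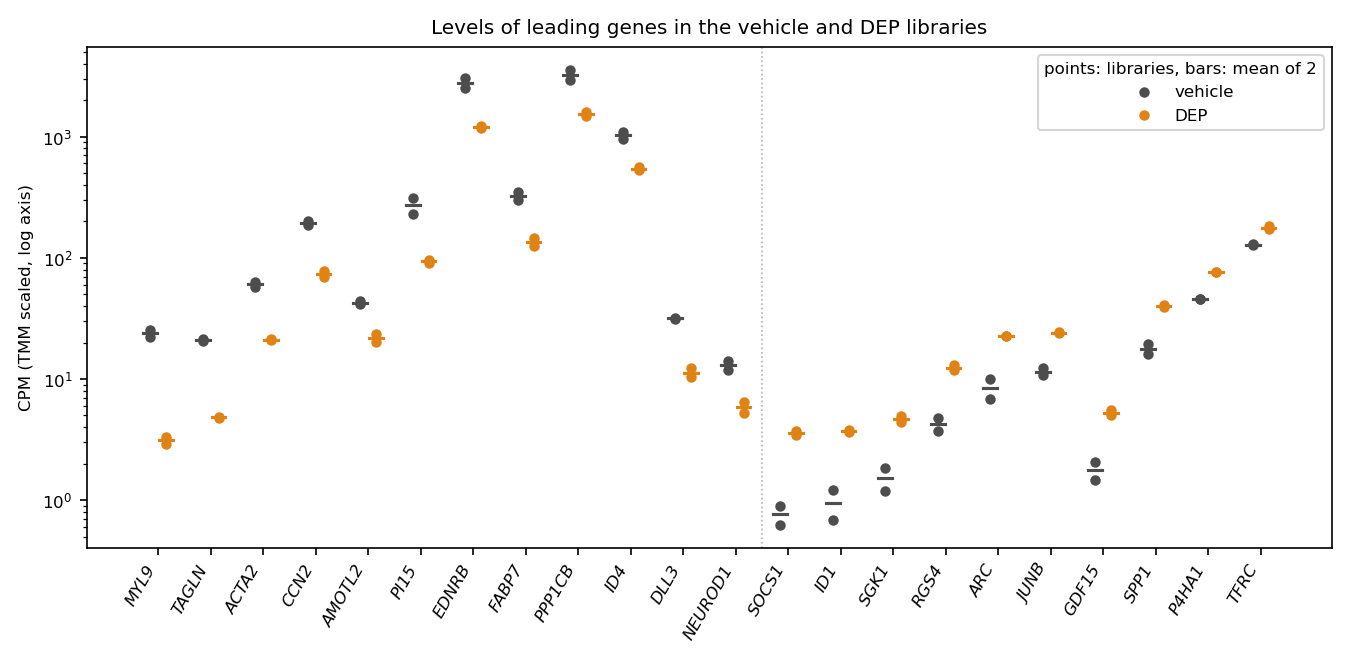
CPM of 22 genes (vertical log axis) in the 2 vehicle libraries (grey) and the 2 DEP libraries (orange), where points are libraries and bars are means. The 12 genes left of the dotted line fell and the 10 to its right rose. In each the groups do not overlap, which was a condition of choice for the genes ranked by size.

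Contractile genes that answer to SRF fell together. Of 28 tested members of the smooth muscle and actin list 18 fell and 1, the smooth muscle myosin gene MYH11, rose (median -0.45, or -0.29 with 4 risen and 15 fallen under library totals alone). The call of MYH11 ended with DESeq2, without DEP 2 and without vehicle 1. ACTA2, smooth muscle actin, stood at 63.6 and 57.9 CPM in vehicle and 21.5 and 20.9 CPM in DEP (-1.52 ± 0.13, adjusted p = 3.1e-05). LMOD1, the leiomodin gene of smooth muscle, stood at 1.96 and 1.57 CPM in vehicle and 0.335 and 0.240 CPM in DEP (-2.61 ± 0.31, adjusted p = 0.000183). The libraries of each group lay close together in both genes. The cytoplasmic actin gene ACTB fell less, from 1686 and 1724 to 1140.5 and 1139 CPM (-0.58 ± 0.06, adjusted p = 5.8e-05). Other members that fell, chosen after their values were seen, were nearer to ACTB: CALD1, the caldesmon gene, stood at -0.65 ± 0.09, the non-muscle myosin gene MYH9 at -0.59 ± 0.10, SRF itself at -0.46 ± 0.07 and the filamin gene FLNA at -0.44 ± 0.06. VCL, the vinculin gene of focal adhesions, chosen likewise, stood at 214 and 215 CPM in vehicle and 210.1 and 209.5 CPM in DEP and was not called (-0.03 ± 0.06, adjusted p = 0.738). CNN1, the calponin gene, had 11 and 13 counts in vehicle and was listed at 0 in both DEP libraries. Against a floor of 3 counts per library this is a log2 difference of -2.27 or lower.

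TEAD targets were mixed. Of 22 tested members 9 fell and 1 rose (median -0.19, or -0.03 with 3 risen and 7 fallen under library totals alone). CCN2, the connective tissue growth factor gene, stood at 199 and 188 CPM in vehicle and 77.8 and 69.4 CPM in DEP (-1.39 ± 0.10, adjusted p = 1.47e-05). AMOTL2, an angiomotin gene that binds YAP, stood at 43.6 and 41.2 CPM in vehicle and 23.4 and 20.2 CPM in DEP (-0.96 ± 0.12, adjusted p = 0.000244). AJUBA, a LIM protein gene of cell junctions, stood at 30.2 and 26.4 CPM in vehicle and 17.99 and 15.97 CPM in DEP (-0.74 ± 0.10, adjusted p = 0.000414). All 3 were lower in both DEP libraries. GADD45A, a growth arrest gene on the same list, rose from 10.9 and 10.4 to 15.2 and 16.3 CPM (0.57 ± 0.11, adjusted p = 0.0029).

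The 250 bases before the annotated starts of these 3 fallen genes are shown because they hold the TEAD motif GGAATG, searched on both strands. They are taken from RefSeq on GRCh38.p14, read 5′ to 3′ on the gene's strand, and capitals mark the motif on either strand. CCN2 lies on the minus strand at chr6:131951373-131951622 with 3 matches, AMOTL2 on the minus strand at chr3:134374448-134374697 with 1, and AJUBA on the minus strand at chr14:22976843-22977092 with 1. For AMOTL2 and AJUBA the window shown is 1 of 2 annotated starts, and the other has no match.
CCN2: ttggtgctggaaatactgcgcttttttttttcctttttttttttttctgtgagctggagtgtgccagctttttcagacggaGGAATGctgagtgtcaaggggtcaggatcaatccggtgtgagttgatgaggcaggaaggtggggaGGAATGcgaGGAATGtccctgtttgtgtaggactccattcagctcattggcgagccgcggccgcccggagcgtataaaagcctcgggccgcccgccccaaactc
AMOTL2: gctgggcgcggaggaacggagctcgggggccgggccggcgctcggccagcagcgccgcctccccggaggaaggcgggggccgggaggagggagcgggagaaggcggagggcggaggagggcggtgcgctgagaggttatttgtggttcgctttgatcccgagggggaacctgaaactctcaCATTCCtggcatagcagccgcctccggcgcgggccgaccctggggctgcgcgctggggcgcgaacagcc
AJUBA: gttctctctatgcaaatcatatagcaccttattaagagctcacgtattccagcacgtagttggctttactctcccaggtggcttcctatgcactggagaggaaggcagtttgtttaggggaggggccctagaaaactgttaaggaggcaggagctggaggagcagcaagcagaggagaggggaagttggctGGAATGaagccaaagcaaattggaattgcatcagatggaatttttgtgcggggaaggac
This motif was found in 11.9% of the 35116 promoter windows of this length, and in at least 1 window of 13.1% of the 13436 tested genes with an entry. Of the 16 tested list members with a window 8 held it in at least 1 window, of which 6 fell. Of the 8 without it 1 fell. A match is a run of letters in this window and not a measured binding site.

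For SRF the motif is the CArG box, searched on both strands in its strict form of a run of A or T between its outer bases. It was found in 1.16% of all windows, in at least 1 window of 1.54% of tested genes with an entry, and likewise in 11 of the 24 tested contractile list members that have an entry, 6 of which fell. Of the 13 members without a match 9 fell. No match was found in the windows of ACTA2 and LMOD1. MYL9, TAGLN, ACTB and CCN1 have no entry.

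Immediate early genes, transcribed within minutes of a stimulus and in part through SRF, went the other way in part. Of 31 tested members 9 rose and 5 fell (median 0.13, or 0.29 with 15 risen and 3 fallen under library totals alone). FOSB, an AP-1 subunit gene, stood at 1.21 and 1.91 CPM in vehicle and 4.80 and 3.92 CPM in DEP (1.49 ± 0.24, adjusted p = 0.00124). EGR2, a zinc finger transcription factor gene, stood at 2.85 and 3.85 CPM in vehicle and 7.01 and 6.15 CPM in DEP (0.98 ± 0.16, adjusted p = 0.00134). EGR1 stood at 139.7 and 162 CPM in vehicle and 235 and 221 CPM in DEP (0.59 ± 0.14, adjusted p = 0.016). The DEP libraries were higher in each of the 3, but the call of EGR1 ended without DEP 1, DEP 2 or vehicle 1, with adjusted p values of 7.51e-05 to 0.107 over the alternatives. The promoter windows of EGR1 and EGR2 are the 2 among 23 tested members with an entry that hold the CArG box, marked in capitals. EGR1 lies on the plus strand at chr5:138465229-138465478 with 2 matches. EGR2 lies on the minus strand at chr10:62816367-62816616 with 1, in 1 of its 3 annotated starts.
EGR1: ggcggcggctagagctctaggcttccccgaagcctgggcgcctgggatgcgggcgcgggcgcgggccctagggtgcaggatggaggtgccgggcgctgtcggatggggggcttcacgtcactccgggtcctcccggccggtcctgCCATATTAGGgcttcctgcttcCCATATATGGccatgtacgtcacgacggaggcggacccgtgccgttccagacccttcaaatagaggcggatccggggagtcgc
EGR2: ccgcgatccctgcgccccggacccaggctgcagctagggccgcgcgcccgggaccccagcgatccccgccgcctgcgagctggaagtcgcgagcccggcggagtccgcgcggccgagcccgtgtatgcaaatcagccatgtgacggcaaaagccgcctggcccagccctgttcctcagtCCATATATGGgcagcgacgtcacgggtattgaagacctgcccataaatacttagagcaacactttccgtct
Both genes rose, whereas 6 contractile members that hold the same box fell, so that it was present in windows of genes that moved in either direction. The other 21 listed genes with an entry held none, and 4 of them rose and 5 fell.

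Several lists of the neuronal programme were lower in DEP. Of 27 tested proneural and neurogenic transcription factor genes 17 fell and none rose (median -0.71). Of 25 genes of the neuronal cytoskeleton and adhesion 16 fell and none rose (median -0.53), and of 16 neuronal RNA-binding protein genes 6 fell and none rose (median -0.46, or -0.31 with 2 risen and 4 fallen under library totals alone). Among 28 presynaptic genes 7 fell and 1 rose (median -0.18, or -0.02 with 1 risen and 4 fallen under library totals alone). Among 25 genes of the postsynapse and transmitter receptors 7 fell and 2 rose (median -0.08, or 0.08 with 6 risen and 5 fallen under library totals alone), and among 31 voltage-gated channel genes 2 fell and 3 rose (median -0.09, or 0.06 with 7 risen and 1 fallen under library totals alone). The difference between these lists was not tested.

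Transcription factor genes of committed progenitors and young neurons fell at high levels. SOX11, a factor of newly formed neurons, stood at 1000.3 and 878 CPM in vehicle and 538 and 611 CPM in DEP (-0.71 ± 0.08, adjusted p = 0.000121). POU3F2, the BRN2 gene, stood at 638 and 559.7 CPM in vehicle and 371 and 388 CPM in DEP (-0.66 ± 0.07, adjusted p = 0.000106). POU3F3, the related BRN1 gene, stood at 243 and 237 CPM in vehicle and 139 and 145 CPM in DEP (-0.76 ± 0.06, adjusted p = 1.35e-05). DEP 1 was the lower of the DEP libraries in each, and both lay below vehicle. SOX4 (-0.64 ± 0.06) and SCRT1 (-1.01 ± 0.16), a repressor gene of postmitotic neurons, fell too.

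The tubulin genes TUBA1A, TUBB3 and TUBB2B, whose products build microtubules, fell. TUBA1A stood at 2268 and 2260.2 CPM in vehicle and 1388 and 1413 CPM in DEP (-0.69 ± 0.06, adjusted p = 2.54e-05). TUBB3, the neuron-specific class III tubulin gene, stood at 713 and 707 CPM in vehicle and 351 and 400.5 CPM in DEP (-0.92 ± 0.13, adjusted p = 0.00143). TUBB2B stood at 1427 and 1432 CPM in vehicle and 823 and 856 CPM in DEP (-0.77 ± 0.07, adjusted p = 3.63e-05). The groups were clearly separate, although tubulin genes have close copies whose reads may have been shared out between them. MAP1B, a microtubule-associated protein gene of growing axons, fell from 3365 and 3109.8 to 1997 and 2174 CPM (-0.63 ± 0.07, adjusted p = 8.57e-05), and KIF5A, an axonal kinesin gene, from 113 and 109.6 to 71.9 and 80.2 CPM (-0.55 ± 0.07, adjusted p = 0.000229). DCX, the doublecortin gene of migrating neurons, stood at 181 and 173 CPM in vehicle and 128 and 146 CPM in DEP and was not called (-0.37 ± 0.13, adjusted p = 0.0716).

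ELAVL3, which encodes a neuron-specific RNA-binding protein, stood at 71.8 and 74.2 CPM in vehicle and 37.03 and 38.4 CPM in DEP (-0.95 ± 0.13, adjusted p = 0.000667). NOVA2, a neuronal splicing regulator gene, fell by less (-0.46 ± 0.07). At the synapse the complexin gene CPLX2 fell from 51.8 and 55.6 to 25.7 and 33.2 CPM (-0.87 ± 0.16, adjusted p = 0.00404). GRIN2D, an NMDA receptor subunit gene, fell from 61.1 and 61.4 to 26.4 and 28.3 CPM (-1.16 ± 0.12, adjusted p = 0.000117), and SHANK3, a postsynaptic scaffold gene, from 16.2 and 15.8 to 9.46 and 9.05 CPM (-0.79 ± 0.11, adjusted p = 0.000704). SYT1, the vesicle calcium sensor gene, stood at 67.2 and 68.6 CPM in vehicle and 60.7 and 66.8 CPM in DEP and was not called. The sodium channel gene SCN2A, at 17.4 and 17.4 CPM in vehicle and 18.05 and 18.3 CPM in DEP, and the scaffold gene DLG4, at 81.6 and 81.3 CPM in vehicle and 81.5 and 73.8 CPM in DEP, were not called either. In DLG4 the groups overlapped, and in the other two they lay close together.

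Progenitor and glial genes were lower as well. Of 23 tested radial glia and progenitor genes 17 fell and 1 rose (median -0.39). Under library totals alone 11 of them fell and 1 rose (median -0.24). Of 24 astrocyte genes 14 fell and 1 rose (median -0.39, or -0.24 with 3 risen and 11 fallen under library totals alone). Of 14 oligodendrocyte lineage genes 5 fell and none rose (median -0.48, or -0.32 with 3 fallen under library totals alone). SOX2, the stem cell factor gene, stood at 991 and 970.1 CPM in vehicle and 639 and 701 CPM in DEP (-0.55 ± 0.06, adjusted p = 0.000183). NES, the nestin gene, stood at 2333 and 2382 CPM in vehicle and 1750.2 and 1624 CPM in DEP (-0.48 ± 0.06, adjusted p = 0.000188). SOX9, a glial fate factor gene, stood at 658 and 639 CPM in vehicle and 469 and 469.6 CPM in DEP (-0.47 ± 0.06, adjusted p = 0.000438). Each was lower in both DEP libraries, and the libraries of a group lay close together. Among astrocyte genes NFIX, a nuclear factor I gene, fell from 1100.0 and 1198 to 780.0 and 795 CPM (-0.54 ± 0.06, adjusted p = 0.000161), whereas S100B stood at 27.4 and 31.6 CPM in vehicle and 27.6 and 26.8 CPM in DEP and was not called. SOX8, a factor gene of the oligodendrocyte lineage, fell from 64.1 and 67.8 to 43.1 and 43.8 CPM (-0.60 ± 0.09, adjusted p = 0.000782). OLIG2, the defining factor gene of the oligodendrocyte lineage, stood at 0.250 and 0.270 CPM in vehicle and 0.321 and 0.212 CPM in DEP, and MAG, OPALIN and NKX2-2 were listed at 0 in all 4 libraries.

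SOX10, which marks oligodendrocyte and neural crest lineages, was listed at 0 in both vehicle libraries and at 48 and 51 counts in the DEP libraries. It was also listed at 0 and 42 counts in the DPP libraries, 36 and 0 in Mix and 0 in both DProP libraries. The same jump between 0 and about 40 counts thus occurred between libraries of 1 group, and the gene overlaps POLR2F in the genome, so no fold change is given. In all, 27 genes were at 0 in both vehicle libraries and at 20 counts or more in both DEP libraries, and 1 gene the other way round.

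Markers of cell types other than neural ones were mostly scarce. Microglia and blood markers had 1 tested member of 12, CD68, which was not called, and PTPRC, AIF1, TYROBP and TREM2 were listed at 0 in all 4 libraries. In the endothelial list 2 of 8 tested genes fell, and PECAM1, ERG and EMCN were at 0. Its summed level was 51.3 and 55.3 CPM in vehicle and 25.6 and 27.1 CPM in DEP. In the mesenchymal list 7 of 14 fell (median -0.68), with summed levels of 297 and 311 CPM in vehicle and 214 and 207 CPM in DEP. Its members DCN, POSTN and TBX18 were at 0 in all 4 libraries. Lumican, the matrix proteoglycan gene LUM, fell from 6.71 and 7.69 to 3.64 and 3.95 CPM (-0.92 ± 0.16, adjusted p = 0.0019), whereas the pericyte receptor gene PDGFRB stood at 55.5 and 63.99 CPM in vehicle and 65.4 and 60.9 CPM in DEP and was not called. These lists share contractile genes with the smooth muscle list, and their part in the contractile decrease was not tested. Of 8 tested epithelial and pluripotency genes none was called.

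Matrix genes were lower in part, among them those of brain proteoglycans. Of 26 tested proteoglycan and tenascin genes 13 fell and 1 rose (median -0.26, or -0.10 with 2 risen and 9 fallen under library totals alone). BCAN, the brevican gene of the perineural matrix, stood at 2106 and 2262 CPM in vehicle and 1167 and 1159 CPM in DEP (-0.91 ± 0.09, adjusted p = 6.91e-05). AGRN, the agrin gene, stood at 694 and 697 CPM in vehicle and 423 and 432 CPM in DEP (-0.70 ± 0.07, adjusted p = 6.7e-05). CSPG5, the neuroglycan C gene, stood at 957 and 1016 CPM in vehicle and 637 and 597 CPM in DEP (-0.68 ± 0.07, adjusted p = 0.000118). All were separate between groups, and VCAN, the versican gene of the same family, was not called at 365 and 387 CPM in vehicle and 365 and 376 CPM in DEP.

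Of 28 collagen genes 8 fell and 1 rose (median -0.33, or -0.17 with 6 risen and 8 fallen under library totals alone). After a GC and length correction the median was -0.10 and 5 fell and 4 rose. COL6A1 fell from 947 and 950.5 to 669.8 and 665 CPM (-0.51 ± 0.05, adjusted p = 0.000107) and the fibril-associated COL16A1 from 14.3 and 15.8 to 7.70 and 6.83 CPM (-1.05 ± 0.13, adjusted p = 0.000235), while the basement membrane gene COL4A1, at 189 and 185 CPM in vehicle and 201 and 188 CPM in DEP, was not called. Of 31 integrin and laminin genes 9 fell and none rose (median -0.13, or 0.03 with 2 risen and 3 fallen under library totals alone). ITGB8, a TGF-beta activating integrin gene of radial glia, fell from 1003 and 838 to 516 and 557 CPM (-0.78 ± 0.08, adjusted p = 6.3e-05). The laminin chain gene LAMC1 and the integrin gene ITGB1 were not called.

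Collagen-modifying enzymes went both ways. Of 35 genes of matrix proteases and crosslinkers 11 fell and 3 rose (median -0.14, or 0.02 with 7 risen and 6 fallen under library totals alone). P4HA1, a prolyl hydroxylase gene also induced by hypoxia, stood at 45.6 and 45.5 CPM in vehicle and 76.04 and 76.4 CPM in DEP (0.74 ± 0.09, adjusted p = 0.000163). LOXL1, a lysyl oxidase gene, stood at 25.1 and 28.3 CPM in vehicle and 14.4 and 13.8 CPM in DEP (-0.92 ± 0.11, adjusted p = 0.000244). Libraries of a group were close in both. SERPINE2, a protease inhibitor gene, rose (0.38 ± 0.07) and LOXL2 fell (-0.91 ± 0.16).

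Adhesion and guidance genes were called in both directions. Of 29 cadherin genes 8 fell (27.6%) and 3 rose (10.3%), beside 16.8% and 8.08% of protein-coding genes. Their median was -0.02, or 0.13 with 9 risen and 5 fallen under library totals alone. The neural cadherin gene CDH2 fell from 672 and 662 to 536 and 513 CPM (-0.35 ± 0.05, adjusted p = 0.00126). PCDHGC3, of the clustered protocadherins, fell from 1757 and 1909 to 1192 and 1237 CPM (-0.59 ± 0.06, adjusted p = 0.000118), although genes of that cluster share exons and its reads may be split among them. Of 47 axon guidance genes 17 fell and 4 rose (median -0.24, or -0.08 with 8 risen and 8 fallen under library totals alone, or -0.04 after the GC and length correction). The semaphorin gene SEMA6D fell from 63.7 and 63.2 to 40.1 and 45.3 CPM (-0.57 ± 0.08, adjusted p = 0.00049) and its receptor family member PLXNB2 from 966 and 1006 to 731 and 665 CPM (-0.50 ± 0.07, adjusted p = 0.000418), whereas the receptor gene ROBO1, at 459 and 438 CPM in vehicle and 457 and 424 CPM in DEP, was not called.

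In the Notch pathway, which holds progenitors in their state, 13 of 27 genes fell and 1 rose (median -0.25, or -0.10 with 4 risen and 11 fallen under library totals alone). The receptor gene NOTCH3 stood at 402 and 423 CPM in vehicle and 285 and 288 CPM in DEP (-0.52 ± 0.07, adjusted p = 0.000282). The target gene HES4 stood at 26.00 and 28.6 CPM in vehicle and 15.2 and 14.3 CPM in DEP (-0.89 ± 0.12, adjusted p = 0.000579). The target gene HES1 stood at 75.05 and 78.7 CPM in vehicle and 58.02 and 58.3 CPM in DEP (-0.40 ± 0.07, adjusted p = 0.00179). All were lower, and the ligand gene DLL1, at 463 and 477 CPM in vehicle and 420.2 and 403 CPM in DEP, was not called.

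The inhibitor of differentiation genes ID4 and ID1, targets of BMP signalling, moved in opposite directions. ID4 stood at 1092 and 952 CPM in vehicle and 525 and 561 CPM in DEP (-0.91 ± 0.07, adjusted p = 1.4e-05). ID1 stood at 0.689 and 1.21 CPM in vehicle and 3.64 and 3.81 CPM in DEP (1.98 ± 0.28, adjusted p = 0.000675). The first was lower and the second higher in both DEP libraries. Of 42 tested genes of the BMP and TGF-beta list 14 fell and 3 rose (median -0.09, or 0.06 with 7 risen and 9 fallen under library totals alone), among them CHRD, the BMP antagonist chordin (-1.03 ± 0.18), and the ligand gene TGFB2 (-0.40 ± 0.08), while BMP4 and TGFB1 were not called.

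In the Wnt list 13 of 41 genes fell and 1 rose (median -0.15, or 0.01 with 5 risen and 8 fallen under library totals alone). CTNNB1, the beta-catenin gene, fell from 623 and 662 to 441 and 476 CPM (-0.49 ± 0.06, adjusted p = 0.000258). The receptor genes FZD3 (-0.55 ± 0.09) and FZD9 (-0.88 ± 0.14) and the secreted modulator gene DKK3 (-0.58 ± 0.07) fell with it, whereas AXIN2, the usual feedback target, stood at 23.9 and 24.9 CPM in vehicle and 29.2 and 25.9 CPM in DEP and was not called. Of 16 Hedgehog genes 5 fell and 1 rose (median -0.11, or 0.05 with 1 risen and 2 fallen under library totals alone), with GLI3 at -0.42 ± 0.07 and the target genes PTCH1 and GLI1 not called.

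Genes of growth factors, their receptors and targets moved in both directions. Of 35 genes of the FGF, EGF and MAPK feedback list 5 rose and 6 fell (median 0.08, or 0.24 with 11 risen and 3 fallen under library totals alone). These are 14.3% and 17.1%, beside 8.08% and 16.8% of protein-coding genes. The ligand genes FGF1 (-0.42 ± 0.07) and FGF2 (-0.54 ± 0.10) and the EGF receptor regulator LRIG1 (-0.39 ± 0.06) fell. ETV5, an ETS factor gene induced by FGF signalling, rose from 24.3 and 28.1 to 44.1 and 40.8 CPM (0.70 ± 0.13, adjusted p = 0.00443), and FOSL1, another MAPK target, from 1.63 and 2.11 to 3.96 and 3.62 CPM (1.03 ± 0.19, adjusted p = 0.00268). NTRK2, the BDNF receptor gene, fell from 2739.8 and 2603 to 1596 and 1668 CPM (-0.71 ± 0.07, adjusted p = 6.22e-05), PTN, the pleiotrophin gene, from 341 and 286 to 166 and 151 CPM (-0.99 ± 0.14, adjusted p = 0.00156), and MDK, the midkine gene, by less (-0.51 ± 0.08). In the neurotrophic list as a whole 4 of 19 genes rose and 4 fell, and the risen ones numbered 1 without DEP 1, 1 without DEP 2, 2 without vehicle 1 and 0 without vehicle 2. Of 20 genes of the IGF axis 7 fell and 1 rose (median -0.26, or -0.10 with 6 risen and 3 fallen under library totals alone), among them the binding protein gene IGFBP7, from 27.2 and 30.9 to 19.1 and 20.1 CPM (-0.57 ± 0.10, adjusted p = 0.00182), whereas the receptor gene IGF1R was not called at 236 and 227 CPM in vehicle and 241 and 249.8 CPM in DEP.

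Genes of cholesterol synthesis were called in both directions against vehicle. Of 25 tested genes 7 fell and 2 rose (median -0.07, or 0.08 with 6 risen and 1 fallen under library totals alone). As shares, 28% fell and 8% rose, beside 16.8% and 8.08% of protein-coding genes. INSIG1, a sterol-sensing regulator gene, rose from 82.3 and 86.1 to 105 and 108 CPM (0.34 ± 0.06, adjusted p = 0.00178), and SQLE, the squalene epoxidase gene, fell from 158 and 153 to 119 and 126 CPM (-0.35 ± 0.06, adjusted p = 0.00233). APOE, the lipoprotein gene of astrocytes, fell from 663 and 723 to 361 and 352 CPM (-0.96 ± 0.17, adjusted p = 0.00719). The phospholipid transfer gene PLTP fell from 352 and 388 to 270.5 and 259 CPM (-0.48 ± 0.06, adjusted p = 0.000274). ABCA1, a transporter gene under the same LXR control, was not called (-0.19 ± 0.07, adjusted p = 0.0782). Among 15 tested genes of LXR control and cholesterol export 3 fell, none rose and 12 were not called (median -0.13). With library totals alone 3 fell and 1 rose (median 0.02). The fallen share was 20%, beside 16.8% of protein-coding genes. Of 31 genes of fatty acid synthesis and oxidation 12 fell and 1 rose (median -0.20, or -0.05 with library totals alone, with which 4 fell and 5 rose), among them the desaturase gene FADS2 (-0.36 ± 0.07) and the carboxylase gene ACACB (-0.40 ± 0.07).

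Genes of hormone and xenobiotic response were called in both directions, in part at shares near those of all protein-coding genes. CYP1B1, a target of the aryl hydrocarbon receptor, stood at 4.66 and 4.20 CPM in vehicle and 1.66 and 1.50 CPM in DEP (-1.49 ± 0.18, adjusted p = 0.000237). The receptor gene AHR stood at 33.7 and 29.9 CPM in vehicle and 30.1 and 29.9 CPM in DEP and was not called. Of 20 tested genes of that response 4 fell and 1 rose (median -0.08, or 0.07 with 7 risen and 2 fallen under library totals alone). As shares, 20% fell and 5% rose, beside 16.8% and 8.08% of protein-coding genes. Of 26 steroid receptor and target genes 7 fell and 3 rose (median -0.15, or 0.00 with 7 risen and 3 fallen under library totals alone). These are 26.9% and 11.5%, beside 16.8% and 8.08% of protein-coding genes. GREB1, a steroid hormone target gene, fell from 126 and 130.0 to 88.7 and 87.3 CPM (-0.54 ± 0.07, adjusted p = 0.000418) and the glucocorticoid target CRISPLD2 from 9.02 and 8.39 to 4.02 and 4.05 CPM (-1.11 ± 0.16, adjusted p = 0.000693), in contrast to the rise of SGK1. The glucocorticoid receptor gene NR3C1, at 80.5 and 77.96 CPM in vehicle and 93.2 and 86.8 CPM in DEP, was not called. Of 24 thyroid hormone and retinoid genes 9 fell and none rose (median -0.21, or -0.05 with 2 risen and 2 fallen under library totals alone).

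The ferritin genes FTH1 and FTL fell, and the transferrin receptor gene TFRC rose. FTH1, the ferritin heavy chain gene for iron storage, stood at 826 and 924 CPM in vehicle and 453 and 435 CPM in DEP (-0.98 ± 0.10, adjusted p = 8.64e-05). FTL, the ferritin light chain gene, stood at 283 and 303 CPM in vehicle and 209 and 219.5 CPM in DEP (-0.45 ± 0.06, adjusted p = 0.000274). TFRC, for iron uptake, was higher in DEP, as given above. Both ferritin genes were lower and TFRC higher in both DEP libraries, although ferritin genes have many processed copies that can take part of their reads.

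The metallothionein genes MT1X and MT2A, whose products bind zinc and copper, rose. MT1X stood at 11.2 and 14.1 CPM in vehicle and 27.1 and 26.4 CPM in DEP (1.08 ± 0.12, adjusted p = 0.000114), and MT2A at 69.1 and 92.9 CPM in vehicle and 167 and 159.6 CPM in DEP (1.01 ± 0.18, adjusted p = 0.00629). The DEP libraries agreed closely while the vehicle libraries differed by more, and near-identical copies make the share of each gene uncertain. Of 25 tested genes of metallothioneins, zinc and iron 5 rose and 5 fell (median 0.02, or 0.17 with 7 risen and 3 fallen under library totals alone, or -0.00 after the GC and length correction). MT1A and MT1M were listed at 0 in 3 of the 4 libraries.
Their promoter windows are shown for the metal response element, the site of the zinc-sensing factor MTF1, searched as TGCACNC and TGCGCNC on both strands. Capitals mark a match on either strand, and neighbouring matches may run together. MT2A lies on the plus strand at chr16:56608334-56608583 with 7 matches and MT1X on the plus strand at chr16:56682220-56682469 with 4.
MT2A: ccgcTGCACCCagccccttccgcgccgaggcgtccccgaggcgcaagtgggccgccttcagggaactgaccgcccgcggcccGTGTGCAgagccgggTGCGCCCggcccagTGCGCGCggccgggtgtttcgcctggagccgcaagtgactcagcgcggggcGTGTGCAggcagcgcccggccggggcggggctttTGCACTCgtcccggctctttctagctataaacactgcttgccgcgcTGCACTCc
MT1X: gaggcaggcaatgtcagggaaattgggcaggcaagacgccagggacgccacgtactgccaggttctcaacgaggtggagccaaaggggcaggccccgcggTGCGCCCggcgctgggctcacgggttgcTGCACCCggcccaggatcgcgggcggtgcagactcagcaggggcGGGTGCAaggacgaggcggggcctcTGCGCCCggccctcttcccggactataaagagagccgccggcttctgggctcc
This short motif was found in 24.8% of all 35116 windows. Counting genes with a match in any of their windows, it was found in 38.5% of the 13436 tested genes with an entry and in 10 of the 17 tested list members with an entry, of which 3 rose and 1 fell. Of the 7 without it none rose and 2 fell.

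Stress responses were divided. Of 30 genes of endoplasmic reticulum and heat shock chaperones 12 fell and 1 rose (median -0.14, or 0.01 with 6 risen and 6 fallen under library totals alone), led by CANX, the calnexin gene, which fell from 1703 and 1575 to 961 and 1029 CPM (-0.72 ± 0.06, adjusted p = 2.57e-05). HSPA5, the central chaperone gene of the unfolded protein response, stood at 194 and 199 CPM in vehicle and 187 and 179 CPM in DEP and was not called. ATF4, the factor gene of the integrated stress response, fell from 265 and 272 to 196 and 204 CPM (-0.42 ± 0.06, adjusted p = 0.000414). Among the 29 tested genes of this response 6 fell and 5 rose (median -0.07, or 0.09 with 8 risen and 3 fallen under library totals alone), with the serine synthesis gene PHGDH lower (-0.57 ± 0.09) and the tRNA synthetase gene WARS1 higher (0.37 ± 0.06). GDF15, a stress-induced hormone gene, rose from 2.08 and 1.46 to 5.55 and 5.02 CPM (1.57 ± 0.23, adjusted p = 0.00078).

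Of 30 p53 target and apoptosis genes 7 rose and 2 fell (median 0.05, or 0.21 with 11 risen and none fallen under library totals alone). CDKN1A, the p21 cell cycle inhibitor gene, stood at 111 and 112 CPM in vehicle and 157 and 146 CPM in DEP (0.45 ± 0.06, adjusted p = 0.000418), whereas MDM2 and BAX were not called. Of 25 antioxidant genes under NFE2L2 control 3 rose and 7 fell (median 0.03, or 0.18 with 8 risen and 3 fallen under library totals alone), and the usual indicator genes NQO1, at 141 and 137 CPM in vehicle and 157 and 146 CPM in DEP, and HMOX1, at 38.5 and 44.5 CPM in vehicle and 49.7 and 48.6 CPM in DEP, were not called. SOD1, the cytosolic superoxide dismutase gene, fell from 191 and 199.6 to 139 and 143 CPM (-0.47 ± 0.06, adjusted p = 0.000247). In glycolysis and hypoxia 7 of 30 genes rose and 8 fell (median -0.03, or 0.13 with 11 risen and 3 fallen under library totals alone): LDHA rose from 27.3 and 26.6 to 38.95 and 42.4 CPM (0.59 ± 0.11, adjusted p = 0.00249) and the hexokinase gene HK2 from 18.2 and 20.4 to 29.6 and 29.1 CPM (0.60 ± 0.10, adjusted p = 0.00149), while GAPDH fell from 231 and 257 to 166 and 185 CPM (-0.48 ± 0.07, adjusted p = 0.000784) and ALDOA by less (-0.37 ± 0.06).

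Cytosolic ribosomal protein genes were lower. Of 57 cytosolic ribosomal protein genes 39 fell and none rose, with a median of -0.40. RPLP0 stood at 1798 and 1848 CPM in vehicle and 913 and 992 CPM in DEP (-0.94 ± 0.07, adjusted p = 1.26e-05), and RPS15 at 448 and 466 CPM in vehicle and 209 and 233 CPM in DEP (-1.05 ± 0.07, adjusted p = 1.26e-05). RPS6 fell from 425 and 441 to 253 and 254 CPM (-0.77 ± 0.06, adjusted p = 1.32e-05). Each had DEP libraries below vehicle, although ribosomal protein genes have many pseudogene copies. Of 34 translation factor genes 13 fell and 1 rose (median -0.11, or 0.04 with 6 risen and 6 fallen under library totals alone). EEF1A1, the main elongation factor gene, fell from 1229 and 1193 to 658 and 669 CPM (-0.87 ± 0.06, adjusted p = 1.22e-05) and EEF2 from 5593 and 6043 to 3505 and 3393 CPM (-0.75 ± 0.07, adjusted p = 3.7e-05), while EIF4E, the cap-binding factor gene, was not called.

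The 13 tested genes of the mitochondrial chromosome all rose (median 1.46), from CYTB, at 31.8 and 46.6 CPM in vehicle and 89.5 and 91.1 CPM in DEP (1.20 ± 0.15, adjusted p = 0.000965), to ND6, at 2.43 and 3.40 CPM in vehicle and 10.5 and 11.5 CPM in DEP (1.92 ± 0.16, adjusted p = 2.54e-05), as examples. Vehicle 2 was above vehicle 1 in both. Of 47 nuclear genes of oxidative phosphorylation 11 fell and 2 rose (median -0.03, or 0.12 with 17 risen and 6 fallen under library totals alone), with UQCRB of complex III at -0.52 ± 0.06 and NDUFA1 of complex I at -0.52 ± 0.08. TFAM, which maintains mitochondrial DNA, stood at 71.4 and 59.8 CPM in vehicle and 56.8 and 67.6 CPM in DEP and was not called. This RNA class is 1 of those in which vehicle stood apart from every treated library, and the part of library preparation in it was not tested.

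In the cell cycle list 3 of 45 genes rose and 3 fell (median 0.03, or 0.18 with 4 risen and 1 fallen under library totals alone). MKI67, the proliferation marker gene, stood at 37.2 and 34.5 CPM in vehicle and 30.7 and 30.2 CPM in DEP, a log2 difference of -0.23 ± 0.48 with a 95% interval of -1.44 to 0.97. CCNB1, the cyclin B1 gene, at 10.4 and 8.91 CPM in vehicle and 10.6 and 12.2 CPM in DEP, was not called either. Of 52 replication-dependent histone genes 7 rose and 2 fell (median 0.32, or 0.47 with 16 risen and 2 fallen under library totals alone). Among 39 cilium genes 10 fell and 4 rose (median -0.13, or 0.03 with 7 risen and 6 fallen under library totals alone). These are 25.6% and 10.3%, beside 16.8% and 8.08% of protein-coding genes. CFAP45 of motile cilia fell from 18.3 and 18.4 to 8.67 and 8.05 CPM (-1.13 ± 0.16, adjusted p = 0.000596), SPAG6 of the central pair from 4.63 and 3.19 to 1.44 and 1.46 CPM (-1.43 ± 0.26, adjusted p = 0.00251), and FOXJ1, the master factor gene of motile cilia, was not called at 104 and 117 CPM in vehicle and 84.9 and 78.2 CPM in DEP.

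Most listed regulatory lncRNAs rose. Of 41 listed lncRNAs 25 rose (61.0%) and 2 fell, with a median of 0.79. Over all tested lncRNA genes 25.1% rose and the median was 0.88. Against the same vehicle libraries the list's medians were 0.80 in DProP, 0.81 in DPP and 0.70 in Mix. This class too set vehicle apart from the treated libraries, and the part of library preparation in it was not tested. KCNQ1OT1, the imprinted antisense RNA, stood at 6.59 and 7.35 CPM in vehicle and 23.00 and 20.9 CPM in DEP (1.66 ± 0.10, adjusted p = 6.75e-06). NEAT1, the scaffold of nuclear paraspeckles, stood at 5.16 and 4.90 CPM in vehicle and 13.2 and 13.8 CPM in DEP (1.42 ± 0.12, adjusted p = 2.72e-05). MIAT, a lncRNA of neural progenitors, stood at 19.03 and 20.9 CPM in vehicle and 41.1 and 47.7 CPM in DEP (1.15 ± 0.08, adjusted p = 1.26e-05). All were higher in DEP, and the opposite held for MALAT1, at 13638 and 10346 CPM in vehicle and 3530.1 and 3869 CPM in DEP (-1.70 ± 0.12, adjusted p = 1.47e-05). In the Prader-Willi region the host transcript SNHG14 (0.33 ± 0.06), PWAR5 (0.41 ± 0.06) and PWAR6 (0.96 ± 0.13) rose, while the protein-coding UBE3A, at 146 and 146 CPM in vehicle and 158 and 150.1 CPM in DEP, was not called. The strand setting of the counts is not given, so reads of antisense and overlapping genes cannot be told apart.

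Smaller counts moved when any of the 4 libraries was left out, which leaves 1 library in a group and fewer samples in the fit. The counts that follow are those without DEP 1, without DEP 2, without vehicle 1 and without vehicle 2, in this order, beside the count with all libraries. Fallen genes numbered 9, 12, 11 and 13 against 17 among proneural factors, 2, 3, 3 and 3 against 6 among neuronal RNA-binding proteins, 4, 3, 5 and 4 against 7 in the presynapse and 3, 3, 5 and 4 against 5 in the oligodendrocyte lineage. They numbered 4, 3, 5 and 5 against 9 among integrins and laminins, 6, 7, 12 and 7 against 11 among matrix proteases and 6, 5, 7 and 6 against 8 among cadherins. In signalling they were 11, 8, 11 and 10 against 13 in the Notch list, 8, 8, 10 and 9 against 13 in the Wnt list, 5, 10, 7 and 10 against 14 in the BMP and TGF-beta list, 3, 4, 4 and 4 against 5 in the Hedgehog list and 4, 4, 4 and 4 against 7 in the IGF axis. In metabolism they were 4, 2, 6 and 2 against 7 in cholesterol synthesis, 6, 9, 8 and 7 against 12 in fatty acid metabolism and 5, 7, 10 and 6 against 11 in nuclear oxidative phosphorylation. In hormone responses they were 4, 3, 5 and 4 against 7 among steroid receptor and target genes and 2, 3, 5 and 2 against 9 among thyroid and retinoid genes. They were 7, 9, 13 and 7 against 13 among translation factors, 6, 5, 6 and 8 against 10 among cilium genes, 2, 1, 3 and 3 against 5 among immediate early genes, 4, 3, 5 and 3 against 6 in the ATF4 list, 2, 2, 4 and 2 against 5 in the metal list and 4, 6, 5 and 6 against 8 in glycolysis and hypoxia. Risen genes numbered 0, 1, 0 and 1 against 4 in axon guidance, 2, 4, 4 and 3 against 5 in the FGF, EGF and MAPK list, 2, 3, 3 and 4 against 5 in the ATF4 list, 4, 3, 4 and 5 against 5 in the metal list, 3, 4, 4 and 5 against 7 among p53 targets, 5, 3, 4 and 7 against 7 in glycolysis and hypoxia, 0, 0, 0 and 4 against 7 among histones and 2, 2, 3 and 2 against 4 among cilium genes. After the GC and length correction the median was -0.07 in the Notch list, -0.09 among thyroid and retinoid genes, -0.09 among steroid genes, -0.07 among integrins and laminins, -0.04 among matrix proteases, -0.08 among cilium genes and 0.25 among immediate early genes. Of the 52 list medians 24 turned sign under at least 1 alternative, 13 of them under one other than library totals alone, and those 13 lay within 0.1 of 0. The larger counts moved less, with 33 to 40 fallen ribosomal protein genes, 14 to 15 contractile genes, 13 to 15 progenitor genes, 13 to 15 genes of the neuronal cytoskeleton and 20 to 22 risen lncRNAs without each library in turn.

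**Figure D3:**
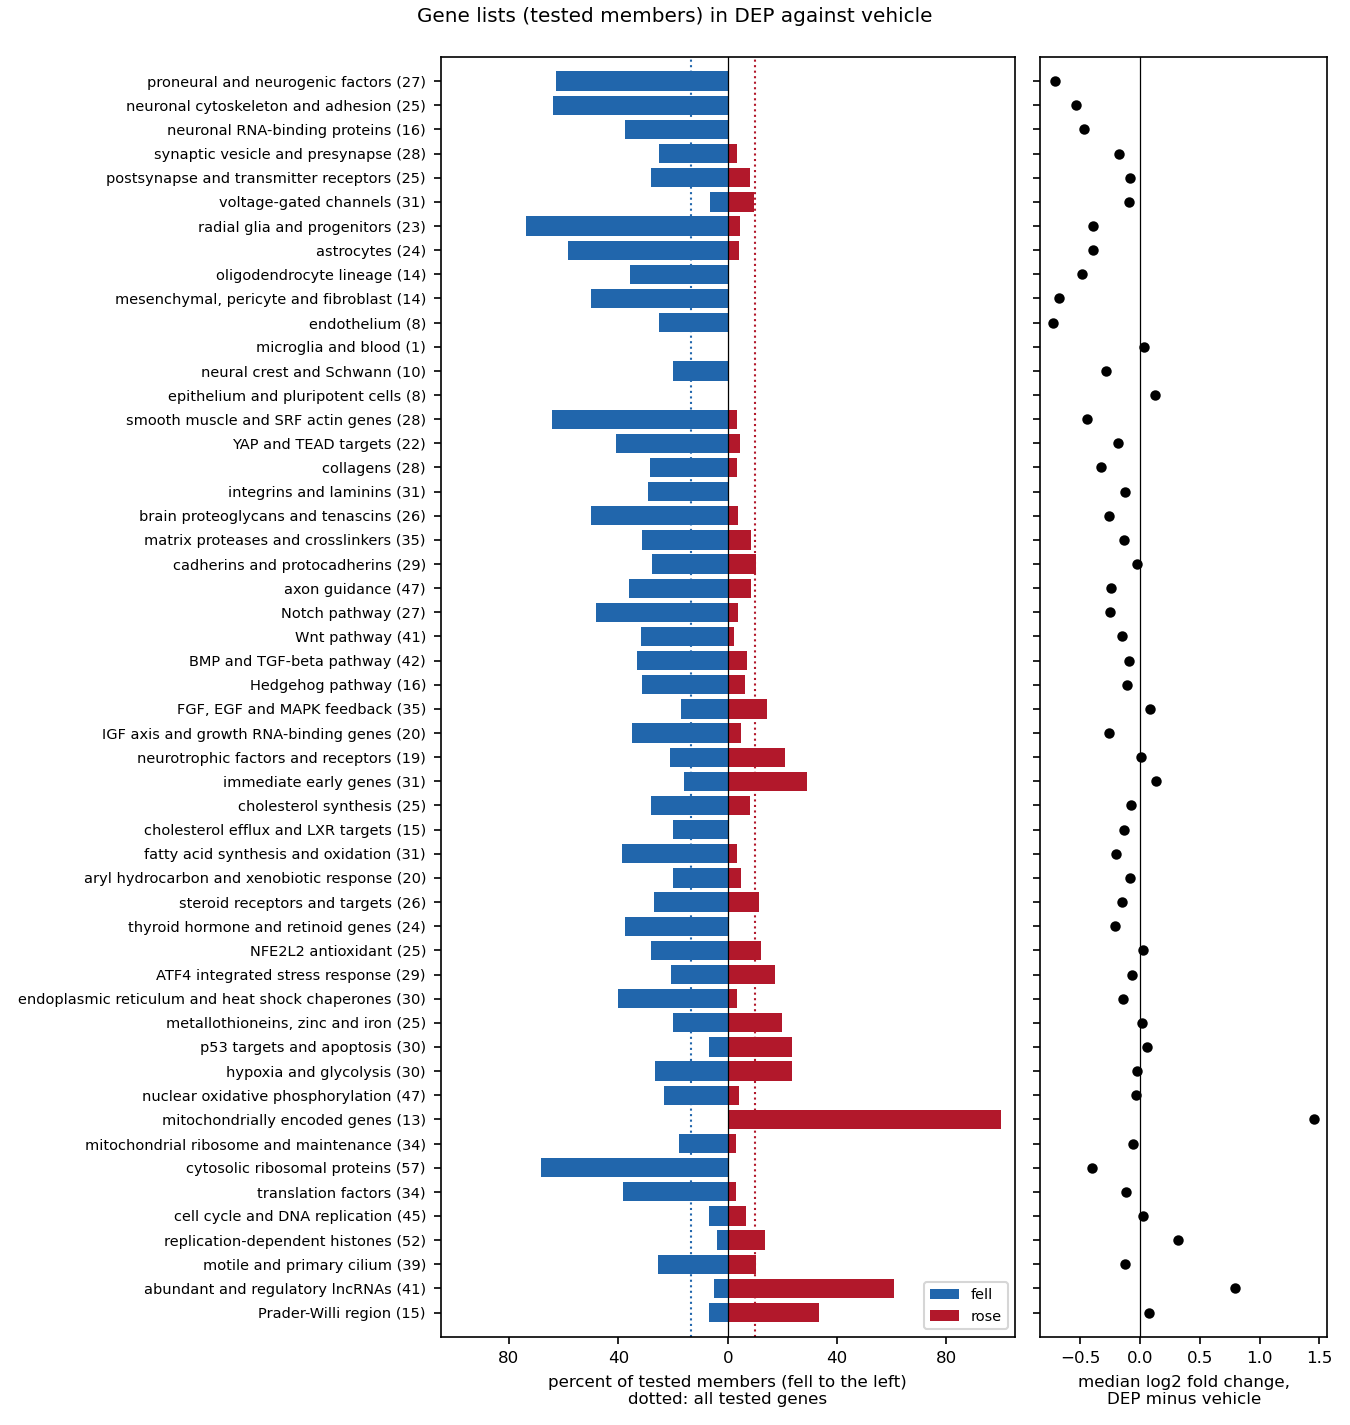
Percent of tested members of each of 52 gene lists that fell (blue, to the left) or rose (red, to the right) in DEP, with the number tested in brackets and dotted lines at 13.5% and 10.1% for all tested genes (left panel). Over protein-coding genes alone the shares were 16.8% and 8.08%. The right panel gives the median log2 fold change. The medians of 39 lists lie below 0 and those of 13 above, and the mitochondrial and lncRNA lists stand to the right.

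DEP was then compared directly with the other single phthalates at the same labelled dose, in 2 comparisons that no vehicle mean enters. The vehicle libraries still took part in the filter, the scaling and the spread of the fit. Against DProP 102 genes were called (0.524%), 26 higher (0.134%) and 76 lower (0.39%) in DEP, and 2592 had an unadjusted p under 0.05. Against DPP 571 genes were called (2.93%), 307 higher (1.58%) and 264 lower (1.36%) in DEP. With p values adjusted over both comparisons together the counts were 220 and 449. With the 2 groups of each comparison fitted alone they were 489 and 979. The counts depended on single libraries: they were 20 and 152 without DEP 1, 9 and 80 without DEP 2, 32 without DProP 2 (267 without DProP 1), and 134 without DPP 2.

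Genes of cholesterol synthesis set DEP apart from both, with lower levels in DEP. Against DProP 18 of 25 tested genes were lower and none higher (median -0.51), and against DPP 12 were lower and none higher (median -0.28). Without DEP 2 these counts were 4 and 2, with medians of -0.50 and -0.29.

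ACAT2, which makes acetoacetyl-CoA, stood at 32.8 and 33.6 CPM in DEP, 64.2 and 77.8 CPM in DProP and 55.4 and 44.6 CPM in DPP. Its log2 difference was -1.10 ± 0.11, adjusted p = 0.00109 against DProP and -0.59 ± 0.11, adjusted p = 0.0145 against DPP. The vehicle libraries stood at 34.03 and 34.8 CPM, close to DEP. LSS, the lanosterol synthase gene, stood at 185 and 174 CPM in DEP and 264 and 257 CPM in DProP (-0.54 ± 0.05, adjusted p = 0.00109). ACAT2 and LSS were picked from the list after their values were seen. Their calls against DProP held in every alternative other than a 2-fold minimum, whereas ACAT2 against DPP was not called without DEP 1, DEP 2 or DPP 1. Against vehicle, whose libraries all 3 treatments share, the list's medians were -0.07 in DEP, 0.43 in DProP and 0.23 in DPP.

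Neuronal genes separated DEP from DPP. Of 27 proneural and neurogenic factor genes 11 were higher in DEP than in DPP and none lower (median 1.04), with 3 higher without DEP 2 and 4 without DPP 2. MYT1, a zinc finger factor gene of new neurons, stood at 17.3 and 20.3 CPM in DEP and 8.51 and 5.42 CPM in DPP (1.43 ± 0.18, adjusted p = 0.00254). NHLH2, a helix-loop-helix factor gene, stood at 13.4 and 13.5 CPM in DEP and 5.73 and 4.72 CPM in DPP (1.36 ± 0.16, adjusted p = 0.00128). The groups were well separate in both, and DPP 2 was the lowest library. ST18, related to MYT1, also differed (1.26 ± 0.13, adjusted p = 0.00106). These 3 were picked after their values were seen. Against DProP 1 of the 27 genes, SCRT1, was higher in DEP (0.89 ± 0.16, adjusted p = 0.0371) and none lower (median 0.28), and that call ended with limma-voom and without DEP 1, DEP 2, DProP 1 or DProP 2.

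Of 25 genes of the neuronal cytoskeleton 6 were higher in DEP than in DPP and 1 was lower (median 0.16). Fewer were called higher without DEP 1, DEP 2 or DPP 2, and more without DPP 1. The median was 0.09 without DPP 2 and 0.24 without DPP 1. STMN4, a stathmin gene that regulates microtubules, stood at 14.3 and 14.9 CPM in DEP and 6.32 and 4.29 CPM in DPP (1.46 ± 0.16, adjusted p = 0.00105). The neurofilament-like gene INA stood at 60.7 and 69.3 CPM in DEP and 40.7 and 38.04 CPM in DPP (0.72 ± 0.08, adjusted p = 0.0011). The lower one was NEFL, the neurofilament light chain gene, at 16.4 and 14.9 CPM in DEP and 29.6 and 34.3 CPM in DPP (-1.03 ± 0.10, adjusted p = 0.0008). INA and NEFL, which encode subunits of the same filament, thus differed in opposite directions. Against DProP the same list had 1 higher gene, STMN4 (0.82 ± 0.16), and 1 lower gene, NEFL (-0.57 ± 0.10), and neither was called without DEP 1, DEP 2, DProP 1 or DProP 2. The call of STMN4 also ended with library totals alone and with the replicate block.

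**Figure D4:**
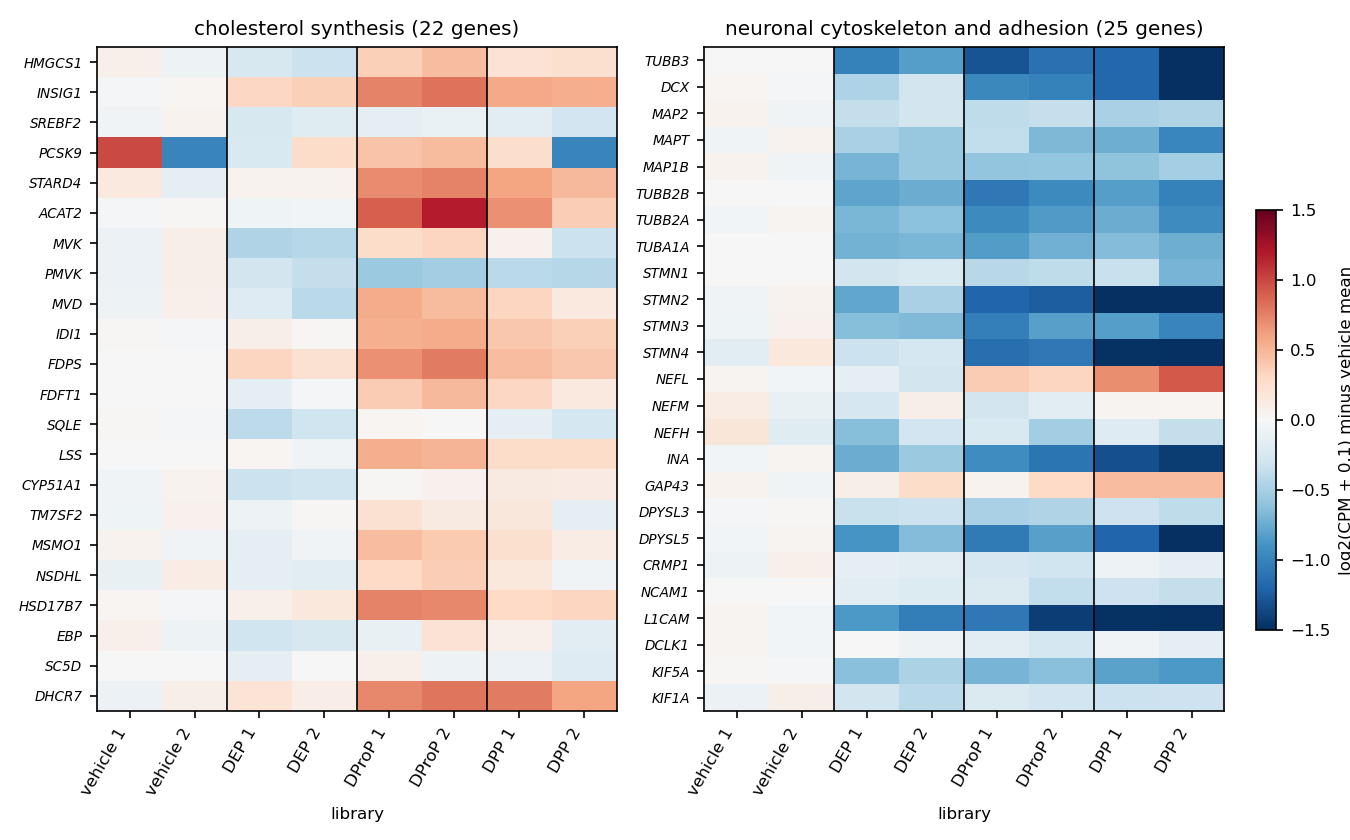
Difference of log2(CPM + 0.1) from the vehicle mean in each library of 4 groups (columns) for the genes of cholesterol synthesis (left) and of the neuronal cytoskeleton (right), with red for higher and blue for lower. The ends of the colour scale also hold larger differences. Not all list members are drawn. ACAT2 and STARD4 are near the vehicle level in DEP and red in DProP and DPP, and TUBB3 and INA are blue in all treated libraries.

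Among called genes with a mean of at least 2 CPM, the largest differences between DEP and DPP lay outside these lists for most genes. HMGA2, a chromatin gene of growing progenitors, stood at 0.823 and 0.679 CPM in DEP and 3.66 and 5.91 CPM in DPP (-2.67 ± 0.26, adjusted p = 0.0008). GDF15 stood at 5.55 and 5.02 CPM in DEP and 15.9 and 22.00 CPM in DPP (-1.84 ± 0.21, adjusted p = 0.0011). SPP1 stood at 39.6 and 41.1 CPM in DEP and 112 and 120.0 CPM in DPP (-1.53 ± 0.16, adjusted p = 0.00169). GDF15 and SPP1, which rose in DEP against vehicle, were thus lower in DEP than in DPP in each library. The nicotinic receptor gene CHRNA9 (-1.53 ± 0.21) and the transporter gene SLC12A8 (-1.56 ± 0.16) were lower in DEP too. Higher in DEP were the phosphatase gene DUSP26 (1.79 ± 0.21), XKR7 (1.85 ± 0.24) and the ATP-gated channel gene P2RX3 (1.56 ± 0.19).

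Between DEP and DProP the called gene with the largest difference at that level was FPGT-TNNI3K, a read-through of neighbouring genes whose counts may be shared with them, at 3.91 and 3.32 CPM in DEP and 0.523 and 0.683 CPM in DProP (2.57 ± 0.22, adjusted p = 0.000895). CALB2, the calretinin gene of interneurons, stood at 4.41 and 4.47 CPM in DEP and 2.19 and 2.43 CPM in DProP (0.94 ± 0.15, adjusted p = 0.0192). AURKB, a mitotic kinase gene, stood at 1.24 and 0.990 CPM in DEP and 2.18 and 4.08 CPM in DProP (-1.49 ± 0.29, adjusted p = 0.0467). DProP 2 was well above DProP 1 in AURKB, and the calls of both CALB2 and AURKB ended without DEP 1, DEP 2 or DProP 2 (highest adjusted p over the alternatives 0.224 and 0.372). That of AURKB also ended with limma-voom, with the 2 groups alone and with the replicate block.

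**Figure D5:**
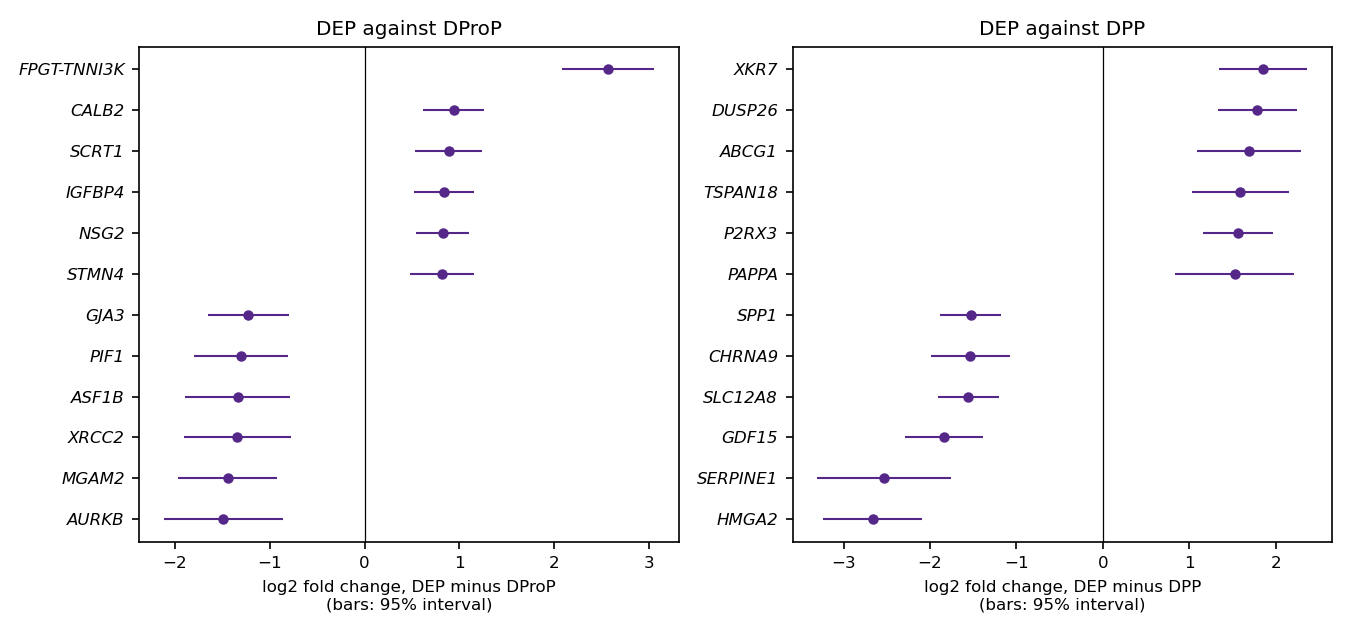
Log2 fold change of DEP against DProP (left) and DPP (right) on the horizontal axis, with 95% intervals as bars, for the 6 largest called differences in each direction. The intervals do not cross 0, as the genes were chosen among those called, and FPGT-TNNI3K at 2.57 and HMGA2 at -2.67 lie farthest out.

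In the contractile gene ACTA2, DEP was not shown to differ from the other phthalates. It stood at 21.5 and 20.9 CPM in DEP, 17.1 and 19.3 CPM in DProP and 18.6 and 18.05 CPM in DPP. The log2 difference of DEP from DProP was 0.22 ± 0.13 with a 95% interval of -0.06 to 0.50, and that from DPP was 0.21 ± 0.13 with an interval of -0.07 to 0.48.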

How the data were processed

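RNA sequencing counts per gene were deposited by the authors for 10 libraries, 2 in each of 5 groups. Per the labels' protocols RNA was extracted from pooled neurospheres and libraries were made by exome capture (SureSelect RNA Direct). The submitters' processing notes name Trimmomatic 0.38, HISAT2 2.1.0, StringTie 2.1.3b, edgeR 4.0.9 and GRCh38. Annotation release, strand setting and multimapping rule: not given in the sources used here. Of 46427 listed genes 17765 had no count in any library, and 44698 matched RefSeq by gene identifier.

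The whole-number counts were analysed as deposited with edgeR 4.0.16 in R 4.3.3. Genes that passed filterByExpr by group (19465) were scaled by TMM and fitted in all 10 libraries with 1 mean per group (5 residual degrees of freedom per gene before moderation). The quasi-likelihood test was adjusted by Benjamini-Hochberg over all genes tested, with a threshold of 0.05. No exact permutation of 2 against 2 libraries can give a two-sided p under 0.333, so single genes were tested in this fit. Promoter windows are the 250 bases before RefSeq starts (GRCh38.p14). The members and the 52 gene lists were chosen with earlier results of these data known. Named genes were the 15 largest called changes each way among protein-coding genes at a mean of at least 2 CPM and the 8 largest of them at 100 CPM or more, if the groups did not overlap and the call held without each library. From each list the 3 first members and up to 5 called members with the smallest p were added, and for DEP against each other phthalate the 6 largest each way. MYH11, CD68, INA and NEFL, outside this rule, were named after their values were seen, as were the genes so marked in the text. Replicate numbers did not pair libraries (correlations of replicate differences between groups from -0.05 to 0.05 over 10 pairs of groups). Alternatives were other scalings, filters, tools (DESeq2 1.42.0, limma 3.58.1), a GC and length correction, a 2-fold minimum, a replicate block, the groups alone, and leaving out each library. The code was tested on simulated data. Some list members are counted but not reported here by name.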

Additional observations from a re-analysis of the deposited data

How the results depend on the processing

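For DEP against vehicle, 4601 genes were called (1964 higher, 2637 lower). No gene called both there and under an alternative changed sign, but many calls were not shared. With the GC and length correction 3622 were called (1596 higher, 2026 lower), among them 2815 of the 4601 (61.2%). With library totals alone 4794 were higher and 1259 lower, and 3223 of the 4601 (70%) were among these 6053 calls. With a 2-fold minimum 133 were called (111 higher, 22 lower). Leaving out 1 library gave 2075 to 3206 calls (753 to 1377 higher, 1322 to 1939 lower): 2075 without DEP 1, 2248 without DEP 2, 3120 without vehicle 1 and 3206 without vehicle 2, with fewer samples in each fit. Against DProP the 102 calls became 263 with protein-coding genes alone, 279 with a stricter filter, 516 with DESeq2, 489 with the 2 groups alone, 1 with the 2-fold minimum, and 9 to 267 without 1 library. Against DPP the 571 calls became 1063 with DESeq2, 979 with the 2 groups alone, 0 with the 2-fold minimum in edgeR (3091 had an unadjusted p under 0.05), and 80 to 747 without 1 library. The replicate block gave 4301, 92 and 529 calls for vehicle, DProP and DPP, moved no count by more than 1.5 times, and pairs libraries that share only a number. Among genes named by the rule, 4 fold changes that were called either as reported or under the alternative turned sign: FASN (0.0996), LONP1 (0.0198) and LSS (0.174) with the GC and length correction, and AHRR, which was at -0.000322, between -0.352 without vehicle 2 and 0.469 without vehicle 1. Uncalled values near 0 turned sign as well, such as CD68, at 0.031, -0.14 without DEP 1 and -0.0826 without vehicle 1. The causes were not tested. With 2 libraries per group a typical gene had a 95% interval of ± 0.26 on the log2 scale, which limits the detection of smaller changes.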
